A study of Zea mays with 137 samples.

Results

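The gene glk8 (Zm00004b011191) of the maize line W22 encodes G2-like transcription factor 8. It was selected by its identifier, from the genes that the paper used for droplet digital PCR. It is 1 of the 41448 genes listed in every deposited comparison. The rule of selection used no expression value, but earlier results of these data were known when the gene was chosen. In the W22 coordinates of the deposited tables the gene lies at chr5:6546832-6549137, near the end of the short arm of chromosome 5 (5S). The tables do not give its strand or exons.

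G2-like proteins are plant DNA-binding proteins named after maize golden2. In maize, golden2 and its close relative are known for turning on nuclear genes for chlorophyll synthesis and light harvesting, and so for the build-up of the photosynthetic apparatus in leaf cells. The wider family holds members with other tasks, and the target genes of glk8 itself are not given in the sources used here. A transcription factor gene can be read in these data in 2 ways, as a gene whose own copy number changes (*cis*) and as a gene that stays at 2 copies while other arms change (*trans*).

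RNA was sequenced from leaves of 45-d-old greenhouse plants. All plants were W22 in background, and their arm doses came from B-A translocations, in which an arm of a normal chromosome is joined to the supernumerary B chromosome. Nondisjunction of that chromosome in pollen gives sperm with an extra dose of the arm or with none, and every aneuploid plant therefore also carried translocation chromosomes. The sample list has 108 aneuploid plants in 33 combinations of 9 pairs of arms and 29 diploid controls, with 1 to 5 plants per combination and 2 to 4 controls per pair. One plant listed as monosomy 1S+trisomy 9L in its title has the opposite doses in the karyotype list and was kept under its title. Controls were plants with 2 copies of both arms of the pair. Those of 1L+3L and 6L+9S, and 1 of those of 5L+6L, are listed as carrying a balanced translocation. The pairs were germinated on different dates, so the pair and the date of growth cannot be told apart.

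The values are group means in FPKM, the number of fragments scaled by transcript length and by the mapped fragments of the library. There is 1 mean per group and no value per plant, and the authors' test columns were not used, so the levels and ratios are given without an error between plants. The depth behind each mean is unknown. The SD of the log2 level over the 9 control means, 0.59, is used below as the measure of spread between groups of diploid plants. It contains differences between families and dates as well as between plants. An FPKM value is a share of the mapped RNA, so fewer cells expressing a gene and less of its RNA per cell cannot be told apart. A change in the total amount of mRNA does not show in it either. The authors report a changed estimated transcriptome size in most combinations, which the ratios below leave out. The sums of FPKM of the 42 groups lay between 570672 and 654278.

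Photosystem II reaction centre W protein (Zm00004b018833), taken as the marker of green leaf, was abundant in all groups. It ranged from 500.5 to 1465 FPKM in the 32 group means in which its own arm, 3L, was not varied, and from 114.7 to 1153 FPKM in the other 10. The lowest of these was monosomy 3L+trisomy 4L.

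The first comparison concerns the diploid plants, in which no arm dose was changed. The controls of 4L+6L had 22.8 FPKM of glk8, those of 1L+3L 22.9 FPKM and those of 6L+9S 30.3 FPKM. It was 32.3 FPKM in the controls of 3L+4L, 33.4 FPKM in those of 1L+5S and 44.5 FPKM in those of 4L+5L. The 3 highest controls were those of 3L+5L with 56.9 FPKM, 5L+6L with 57.9 FPKM and 1S+9L with 70.5 FPKM. Thus diploid leaves of the same line and age differed 3.10-fold in glk8 between families, with a mean of 41.3 ± 17.1 FPKM (SD, n = 9 control means) and a coefficient of variation of 41.4%. Controls with a balanced translocation in all plants were among the lower ones (22.9 and 30.3 FPKM), and its part in their level was not tested.

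Against other leaf genes this spread was wide. Of the 14944 genes with at least 1 FPKM in every group mean, the median SD of the log2 level over the 9 controls was 0.28, and glk8 with 0.59 lay at the 89.0th percentile. By its mean control level glk8 lay at the 82.1st percentile of the same genes, so it was not a gene of low abundance. Of the 10 genes on the list for droplet digital PCR, the other 9 had SDs from 0.15 to 0.55, all smaller than that of glk8. By the highest over the lowest control, however, the peroxidase gene px5 alone of these was wider (3.61-fold against 3.10-fold). The 1-phosphatidylinositol-3-phosphate 5-kinase gene was close to glk8 (3.05-fold). The genes next to it on the chromosome did not share this spread. Zm00004b011190, 1355 bp before the locus, varied 1.35-fold between the 9 controls (7.07 to 9.56 FPKM), and Zm00004b011192, 2920 bp after it, varied 1.43-fold (5.52 to 7.91 FPKM).

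**Figure D1:**
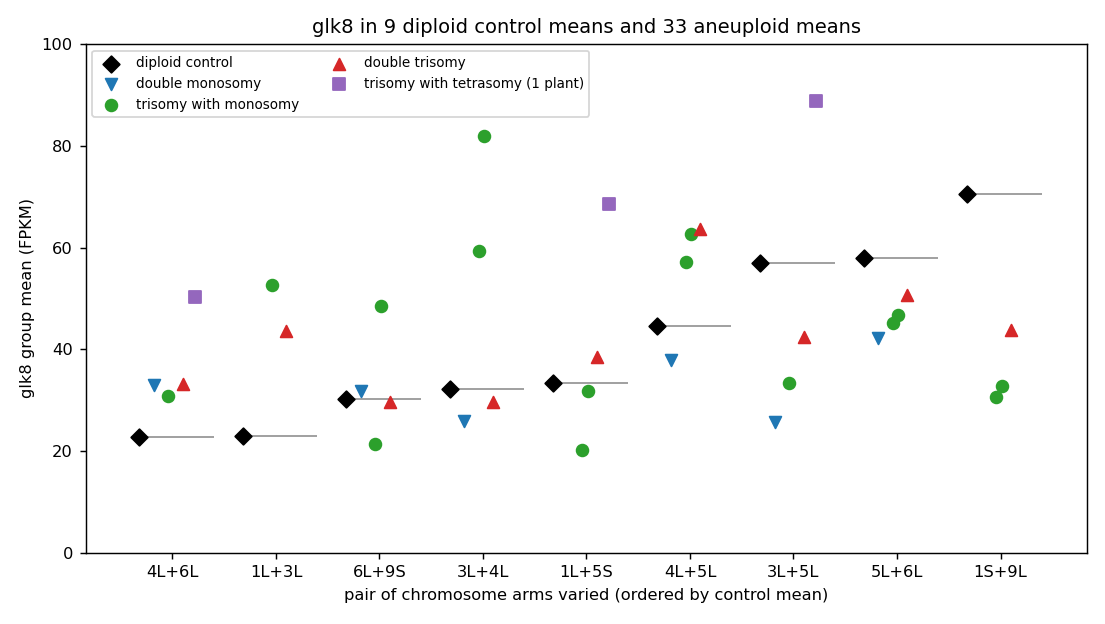
Group means of glk8 (y axis, FPKM) for each pair of varied arms (x axis, ordered by the control mean). Black diamonds with a grey line are the diploid controls and coloured symbols the aneuploid combinations by kind. The 9 controls run from 22.8 to 70.5 FPKM, and the 33 aneuploid means from 20.3 to 88.7 FPKM, without error bars because the tables hold no value per plant.

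Over all 42 group means the order ran without a gap. The 41 steps between neighbours in the order were at most 0.22 on the log2 scale. No error of a single mean is at hand, so neighbours in this order are not called different. The lowest means were trisomy 1L+monosomy 5S (20.3 FPKM), the only group with 1 copy of the gene, and monosomy 6L+trisomy 9S (21.3 FPKM). The highest were monosomy 3L+trisomy 4L (81.9 FPKM, 2 plants) and tetrasomy 3L+trisomy 5L (88.7 FPKM, 1 plant), in both of which glk8 was present in 2 copies. Both means were above that of the single plant with 4 copies of the gene (68.6 FPKM).

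The pair 1L+5S is the one in which the copy number of glk8 itself changed. With 1 copy, in trisomy 1L+monosomy 5S, the level was 20.3 FPKM. With 2 copies, in the diploid controls, it was 33.4 FPKM. With 3 copies it was 38.6 FPKM in double trisomy 1L+5S and 31.8 FPKM in monosomy 1L+trisomy 5S. The single plant with 4 copies, trisomy 1L+tetrasomy 5S, had 68.6 FPKM. The level was therefore lowest with the fewest copies and highest with the most, while both groups with 3 copies stayed close to the diploid level.

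Ratios to the diploid control place these values against gene dosage, where a ratio equal to the copy number over 2 is a dosage effect and 1.0 is full compensation. With 1 copy the ratio was 0.61, against 0.5 for a dosage effect. With 3 copies it was 1.16 in double trisomy 1L+5S and 0.95 in monosomy 1L+trisomy 5S, against 1.5. With 4 copies it was 2.06, against 2. Per copy of the gene this is 20.3 FPKM at 1 copy, 16.7 FPKM in the controls, 12.9 and 10.6 FPKM at 3 copies, and 17.1 FPKM at 4 copies. Both combinations with 1 or 3 copies of 5S and the opposite dose of 1L included plants noted as sampled with the mid-rib. The marker of green leaf was at 533.8 FPKM in trisomy 1L+monosomy 5S and 1167 FPKM in monosomy 1L+trisomy 5S. In the control it was at 736.1 FPKM. The part of mid-rib or marker in these ratios was not tested.

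The other genes of 5S give the scale for these ratios. In trisomy 1L+monosomy 5S the median ratio of the 1132 *cis* genes of 5S was 0.52 (25th to 75th percentile 0.40 to 0.67), and glk8 lay at the 65.5th percentile. In double trisomy 1L+5S the median of 1163 genes was 1.31 (1.01 to 1.69), and glk8 lay at the 35.9th percentile. In monosomy 1L+trisomy 5S the median of 1175 genes was 1.30 (0.98 to 1.80), and glk8 was lower, at the 23.2nd percentile. In trisomy 1L+tetrasomy 5S the median of 1221 genes was 1.85 (1.27 to 2.77), with glk8 at the 57.9th percentile. Thus glk8 was inside the middle range of the 5S genes in 3 of the 4 combinations and just below it in monosomy 1L+trisomy 5S.

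The slope of the log2 level of glk8 on the log2 number of copies was 0.72 over the 5 group means, where 1 is a dosage effect and 0 is compensation. The median slope of the 947 genes of 5S with at least 1 FPKM in all 5 means was 0.86 (25th to 75th percentile 0.73 to 1.00), and glk8 lay at the 22.7th percentile. Its slope fell to 0.49 without the single plant of trisomy 1L+tetrasomy 5S and was 0.95 without trisomy 1L+monosomy 5S, so it rested on the 2 ends of the series. All 4 aneuploid means also had a changed dose of 1L, so the 2 arms cannot be told apart in this slope. With 1L held at 3 copies, glk8 was 1.90-fold higher at 3 copies of 5S than at 1 (38.6 against 20.3 FPKM).

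The closest genes were also lower than in the control at 1 copy and higher at 4 copies. Zm00004b011190 had ratios of 0.62 at 1 copy, 1.04 and 1.24 at 3 copies (double trisomy 1L+5S and monosomy 1L+trisomy 5S, respectively) and 1.58 at 4 copies. For Zm00004b011192 the corresponding ratios were 0.48, 1.07, 1.05 and 1.63. Of the 20 nearest genes past the filter, 10 on each side, 7 had a lower ratio than glk8 at 1 copy, 7 in double trisomy 1L+5S, 2 in monosomy 1L+trisomy 5S and 9 at 4 copies. The median ratio of these neighbours at 3 copies was 1.43 and 1.53, above the 1.16 and 0.95 of glk8. It was also above glk8 at 1 copy (0.63 against 0.61) and at 4 copies (2.31 against 2.06).

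**Figure D2:**
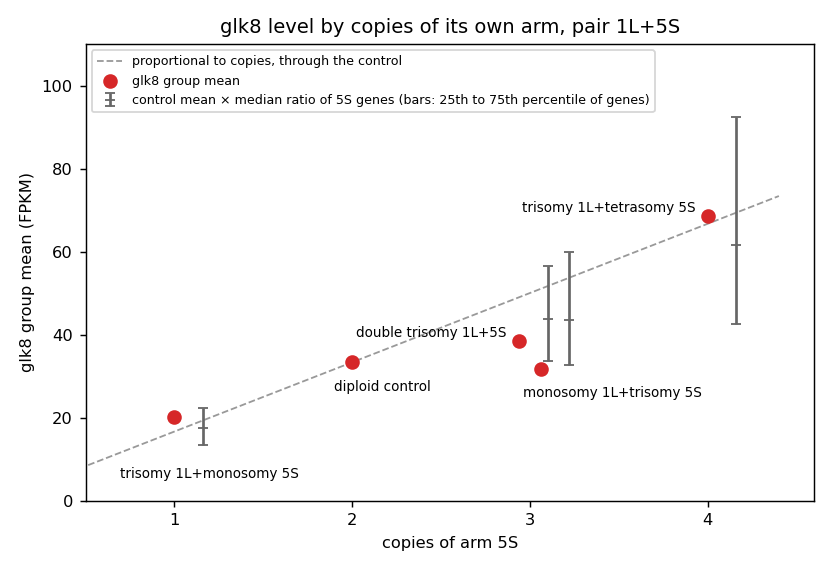
Group means of glk8 (y axis, FPKM) against copies of 5S (x axis) in the pair 1L+5S. Red points are group means, the dashed line is proportional to copies through the control, and grey marks show the control mean multiplied by the median ratio of the 5S genes with the 25th to 75th percentile of genes. The points at 1 and 4 copies (20.3 and 68.6 FPKM) lie near the dashed line and those at 3 copies (38.6 and 31.8 FPKM) lie below it.

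In the other 8 pairs 5S was not varied, and glk8 was a *trans* gene in 29 combinations. The question there is whether changed doses of other arms altered its expression. Its ratio to the control of the same pair was above 1 in 14 combinations and below 1 in 15. The ratios ran from 0.43 to 2.54 with a median of 0.98, so they were centred on the diploid level but widely spread. At 2 combinations of 6L+9S, double monosomy and double trisomy, the ratio lay so near 1 (1.05 and 0.98) that dividing by the *trans* median of the combination moved it to the other side.

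At least 1.5-fold higher levels than in the control were found in 7 of the 29 combinations (24.1%), and at least 1.5-fold lower levels in 5 (17.2%). Over the same combinations 15% of all *trans* gene values were at least 1.5-fold higher and 12.7% at least 1.5-fold lower, and per combination these shares ran from 4.1% to 25.2% and from 4.82% to 36.4%. The 7 higher values came from 5 pairs and the 5 lower ones from 2 pairs. Combinations of a pair share their control, so these counts are not independent. The same 12 combinations had a log2 ratio beyond the SD of the control means (0.59). That limit is close to 1.5-fold, so this is not a separate count. The SD describes single control means of different families and not a ratio within a pair.

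Set against the *trans* genes of each combination, glk8 was rarely in the middle. It lay below the 25th percentile in 11 combinations, above the 75th in 13 and between them in 5. By definition, as many *trans* genes of a combination lie between these limits as outside them. Combinations of a pair share their control, so these percentiles are not independent. The extremes of glk8 were the 6.08th percentile in double monosomy 3L+5L and the 92.5th in double trisomy 1L+3L. The SD of its log2 *trans* ratio over the 29 combinations was 0.72, against a median of 0.37 for the 14944 genes (88.9th percentile) and 0.18 to 0.62 for the other 9 genes of the droplet digital PCR. The SD of each of these 9 is over the combinations in which that gene was *trans*, from 17 to 29. The neighbours of glk8 had 0.25 (Zm00004b011190) and 0.33 (Zm00004b011192) and ratios between 0.62 and 1.67.

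**Figure D3:**
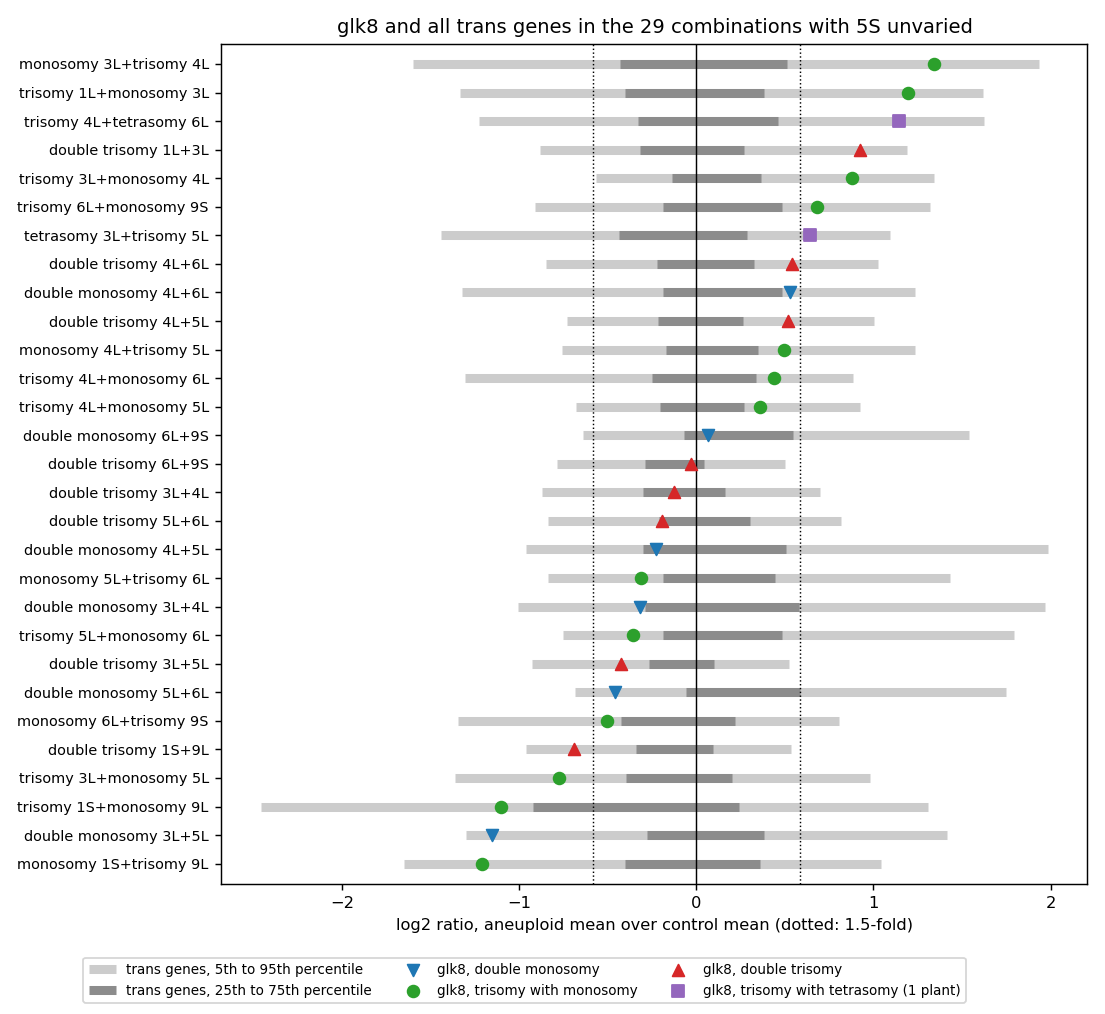
Log2 ratio of the aneuploid to the control mean (x axis) for the 29 combinations with 5S unvaried (y axis, ordered by the ratio of glk8). Coloured symbols are glk8, and dark and light grey bars span the 25th to 75th and the 5th to 95th percentile of all *trans* genes of that combination. The symbols run from a ratio of 0.43 at the bottom to 2.54 at the top, lie outside the dark bar in 24 combinations, and lie inside the light bar in all 29.

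The 7 combinations at least 1.5-fold higher were 4 of a trisomy with a monosomy, 1 double trisomy and, with 5S unvaried, both combinations with a tetrasomy. In the pair 1L+3L (control 22.9 FPKM) the level was 52.6 FPKM in trisomy 1L+monosomy 3L and 43.6 FPKM in double trisomy, ratios of 2.29 and 1.90. Some plants of trisomy 1L+monosomy 3L were noted as sampled with the mid-rib, and the marker of green leaf was at 375.3 FPKM there, with its own arm at 1 copy, against 881 FPKM in the control. The part of either in the level of glk8 was not tested. In 4L+6L (control 22.8 FPKM) it was 30.9 FPKM in trisomy 4L+monosomy 6L, 32.9 FPKM in double monosomy and 33.1 FPKM in double trisomy. The single plant of trisomy 4L+tetrasomy 6L stood above these with 50.3 FPKM, a ratio of 2.21. All 6 combinations of these 2 pairs were above their control, and both controls were the lowest of the series.

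The opposite was seen in the pairs with the highest controls. In 1S+9L (control 70.5 FPKM) the level was 30.5 FPKM in monosomy 1S+trisomy 9L, 32.8 FPKM in trisomy 1S+monosomy 9L and 43.7 FPKM in double trisomy, ratios of 0.43, 0.47 and 0.62. In 5L+6L (control 57.9 FPKM) it was 42.2 FPKM in double monosomy, 45.2 FPKM in trisomy 5L+monosomy 6L, 46.7 FPKM in monosomy 5L+trisomy 6L and 50.7 FPKM in double trisomy, ratios of 0.73 to 0.88. All 7 combinations of these 2 pairs were below their control. The plants of trisomy 1S+monosomy 9L were noted as sampled with the mid-rib. The marker of green leaf was at 1026 FPKM there, with its own arm unvaried, against 822.4 FPKM in the control. The part of either in the level of glk8 was not tested.

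In 3L+5L (control 56.9 FPKM) the combinations were far apart. Double monosomy had 25.6 FPKM, trisomy 3L+monosomy 5L 33.3 FPKM, double trisomy 42.5 FPKM and the single plant of tetrasomy 3L+trisomy 5L 88.7 FPKM, ratios of 0.45, 0.59, 0.75 and 1.56. Among these plants the order of the levels was that of the total number of copies of both arms, over a 3.46-fold range, but the control lay above all of them except the tetrasomy. The double monosomy plants were noted as sampled with the mid-rib. The marker of green leaf was at 255.1 FPKM there, with its own arm at 1 copy, against 926.4 FPKM in the control. The part of either in the level of glk8 was not tested.

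In 4L+5L (control 44.5 FPKM) double monosomy was lowest with 37.9 FPKM, followed by trisomy 4L+monosomy 5L with 57.2 FPKM, monosomy 4L+trisomy 5L with 62.7 FPKM and double trisomy with 63.6 FPKM. In 6L+9S (control 30.3 FPKM) the order was monosomy 6L+trisomy 9S with 21.3 FPKM, double trisomy with 29.7 FPKM, double monosomy with 31.7 FPKM and trisomy 6L+monosomy 9S with 48.6 FPKM. The 2 combinations of opposite dose were the extremes of 6L+9S, with ratios of 0.70 and 1.60, while both double changes stayed near the control.

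In 3L+4L the opposite doses also lay farthest from the control, both above it. Against a control of 32.3 FPKM, double monosomy had 25.9 FPKM and double trisomy 29.6 FPKM, ratios of 0.80 and 0.92. The combinations of opposite dose were high, with 59.3 FPKM in trisomy 3L+monosomy 4L and 81.9 FPKM in monosomy 3L+trisomy 4L, ratios of 1.84 and 2.54. In monosomy 3L+trisomy 4L glk8 lay at the 90.8th percentile of its *trans* genes. The marker of green leaf was at its lowest in the same 2 plants (114.7 FPKM, with its own arm at 1 copy), some of which were sampled with the mid-rib. It was also below the control in double monosomy 3L+4L, where glk8 was low (445.6 against 601.2 FPKM). The part of mid-rib or marker in the level of glk8 was not tested.

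Averaged over pairs, the *trans* level of glk8 did not move in one direction. The mean log2 ratio of a pair was positive in 5 pairs and negative in 3, from a geometric mean ratio of 2.09 in 1L+3L to 0.50 in 1S+9L, with a mean log2 ratio of 0.09 ± 0.66 (SD, n = 8 pairs), or 1.07-fold. An exact permutation test that flips the signs of the 8 pair means (two-sided) gave P = 0.672 (Benjamini-Hochberg adjusted over 2 tests, 0.672), where the smallest P possible is 0.00781. Without 1L+3L the mean was -0.044.

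The control mean enters each ratio of a pair, so the aneuploid levels were also compared with the controls directly. The geometric mean aneuploid level of a pair ran from 31.4 FPKM in 6L+9S to 54.2 FPKM in 4L+5L, a 1.73-fold range, while the controls of the same 8 pairs covered 3.10-fold. On the log2 scale the SD between pairs was 0.26 for the mean aneuploid level and 0.63 for the controls, and the SD between combinations within a pair was 0.50. Each pair mean averages 2 to 4 combinations, whereas each control is 1 group. The control level and the mean aneuploid level of a pair were not detectably related (Pearson *r* = 0.08, exact permutation P = 0.838; Spearman *rho* = 0, exact permutation P = 1; both adjusted P = 1; n = 8 pairs). Without the 2 pairs farthest from the median control, 1S+9L and 4L+6L, *r* was 0.21. Families with high glk8 in the diploid therefore did not have detectably higher glk8 in their aneuploid plants.

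**Figure D4:**
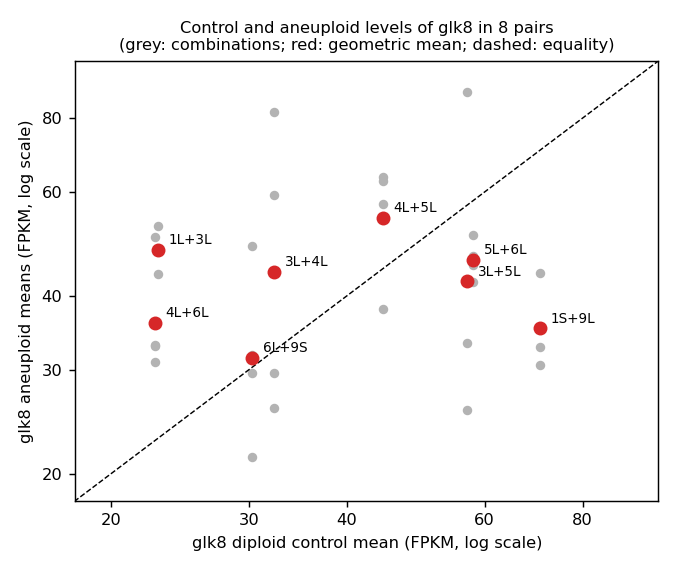
Diploid control mean (x axis) and aneuploid means (y axis) of glk8 in FPKM on log scales for the 8 pairs with 5S unvaried. Grey points are combinations, red points the geometric mean of a pair, and the dashed line marks equality. The red points span 31.4 to 54.2 FPKM and the controls 22.8 to 70.5 FPKM.

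Double monosomies and double trisomies of the same arms could be compared in 6 pairs, and there the control drops out of the difference. The level of glk8 was lower in double monosomy in 5 of the 6 pairs. In log2 units 4L+5L had a difference of -0.74, 3L+5L of -0.73 and 5L+6L of -0.26. The pair 3L+4L followed with -0.19 and 4L+6L with -0.01, and 6L+9S had 0.10. The mean was -0.31 ± 0.36 (SD, n = 6 pairs), or 0.81-fold, and did not pass the same exact permutation test (two-sided P = 0.0938, adjusted over 2 tests 0.188, smallest possible 0.03125).

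The *trans* genes as a whole leaned the other way. The median log2 difference of the *trans* genes between double monosomy and double trisomy was positive in 5 of these pairs, up to 0.33 in 6L+9S, and -0.01 in 4L+5L. After division of each ratio by its *trans* median, glk8 was lower in double monosomy in 6 of 6 pairs, with a mean difference of -0.47 (exact permutation P = 0.03125, the smallest this design allows, not adjusted). Division of levels by the sum of FPKM of the group gave -0.29 (exact permutation P = 0.156). The share of *trans* genes lower in all 6 pairs was not computed. Among the *trans* genes of a pair, the difference of glk8 lay between the 6.03rd percentile (3L+5L) and the 41.2nd (4L+6L).

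Comparisons of 1 and 3 copies of an arm, with the dose of the other arm held constant, leave the control out and are given as descriptions. With 3 copies of 5L in place of 1, glk8 was higher in 5 of 5 matched comparisons from 3 pairs, by 1.07- to 1.65-fold, and 8.72% of the 12634 *trans* genes with at least 1 FPKM were higher in all 5. The largest step was in plants with 1 copy of 4L, from 37.9 to 62.7 FPKM. The arm 5L belongs to the same chromosome as glk8, but 5S stayed at 2 copies in these plants.

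For 6L the result was similar. With 3 copies of 6L glk8 was higher in 5 of 5 matched comparisons from 3 pairs, by 1.07- to 1.53-fold, or in 4 of 5 when levels were divided by the sum of FPKM of the group. Of the 13100 *trans* genes, 13.8% were higher in all 5. The largest step was with 1 copy of 9S, from 31.7 to 48.6 FPKM. Matched comparisons of a pair can share plants, most of the steps were smaller than the SD of the controls, and they were singled out after the values were seen.

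The short arm of chromosome 9 went with lower glk8. With 3 copies of 9S in place of 1, the level was 21.3 against 31.7 FPKM at 1 copy of 6L and 29.7 against 48.6 FPKM at 3 copies of 6L, ratios of 0.67 and 0.61. This direction was common, as 58.9% of the 15015 *trans* genes were lower in both comparisons. For 1L, 1S and 9L there was 1 matched comparison each, with glk8 higher at 3 copies by 1.21-, 1.43- and 1.33-fold.

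For 3L and 4L the direction depended on the other arm. At 1 copy of 3L, glk8 was 25.9 FPKM with 1 copy of 4L and 81.9 FPKM with 3 copies, 3.16-fold higher. At 3 copies of 3L it was 59.3 FPKM with 1 copy of 4L and 29.6 FPKM with 3 copies, a ratio of 0.50. In the other pairs the ratios of 3 copies to 1 were 0.94, 1.01 and 1.51 for 4L, and 0.83 (1L+3L) and 1.30 (3L+5L) for 3L. The departure from additivity, that is, the mean of the double changes minus the mean of the opposite changes, was -1.33 on the log2 scale in 3L+4L, against a median of -0.08 over 14651 *trans* genes, where glk8 lay at the 1.59th percentile. In the other 3 pairs with all 4 combinations it was -0.28 (4L+5L), -0.07 (6L+9S) and 0.01 (5L+6L). These are single contrasts of 4 group means with no residual, and none was tested.

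**Figure D5:**
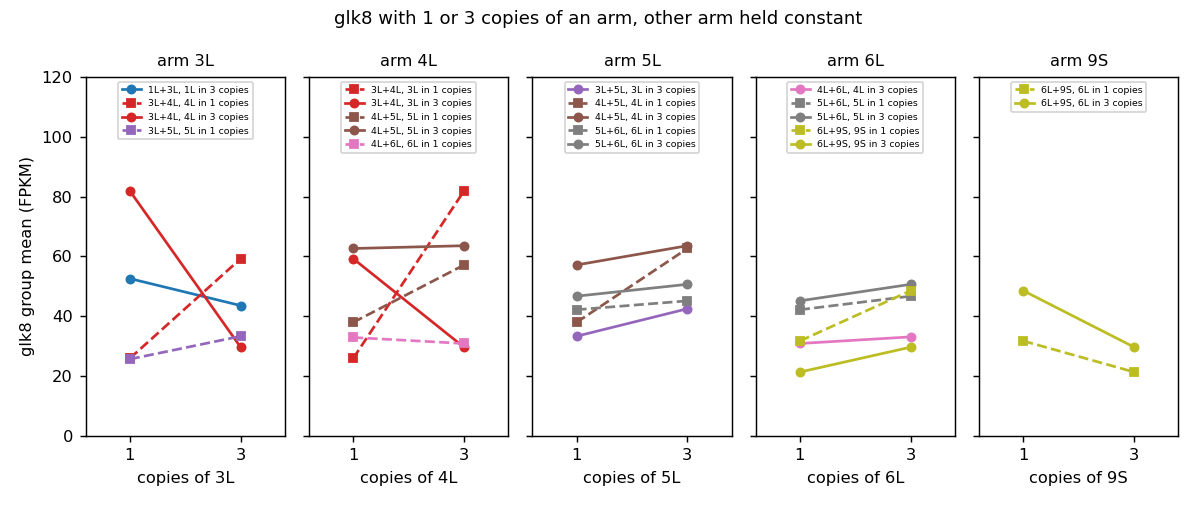
Group means of glk8 (y axis, FPKM) with 1 or 3 copies of the arm named above each panel (x axis), joined for groups that share the dose of the other arm. Colours are pairs, and solid and dashed lines have 3 and 1 copies of the other arm. Lines for 5L and 6L all rise, both lines for 9S fall, and the 2 lines of 3L+4L cross in the panels of 3L and 4L (25.9 to 81.9 FPKM and 59.3 to 29.6 FPKM in the latter).

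By kind of combination the *trans* ratios of glk8 overlapped. The 8 double trisomies ran from 0.62 to 1.90 with a median of 0.95, and the 6 double monosomies from 0.45 to 1.45 with a median of 0.83. The 13 opposite changes (trisomy of one arm, monosomy of the other) covered the widest range, 0.43 to 2.54, with a median of 1.29. Both single plants with a tetrasomy were above their controls (1.56 and 2.21).

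Genes with a pattern most like that of glk8 were ranked by the Pearson correlation of the log2 ratios over the 29 combinations, among 15033 other genes with at least 1 FPKM in all these combinations and their controls. The combinations of a pair share a control, which enters both genes. The median *r* was 0.10 (5th to 95th percentile -0.49 to 0.56), and 19 genes reached 0.8 or more and 7 reached -0.8 or less. Genes on varied arms were not left out of this ranking. The most alike was Zm00004b005215 on chromosome 1 (*r* = 0.89), whose ratios ran from 0.09 to 8.37, a wider range than that of glk8. This gene lies on 1L, so it was itself present in 3 copies in both combinations of 1L+3L. The next was Zm00004b025144 on chromosome 8 (*r* = 0.88), with ratios from 0.21 to 3.26. The most opposite were Zm00004b037732 on chromosome 10 (*r* = -0.83) and Zm00004b009368 on chromosome 2 (*r* = -0.82). When levels were centred within each pair, which leaves the controls out, the correlations were 0.74, 0.82, -0.81 and -0.73 in the same order. These genes were picked by *r* over the same aneuploid means, so the centred values are not separate evidence of likeness. The tables give these identifiers no gene name.

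The other 9 genes of the droplet digital PCR gave weaker correlations with glk8. They ran from -0.58 for the 1-phosphatidylinositol-3-phosphate 5-kinase gene (Zm00004b003707), a lipid kinase, to 0.54 for px5 (Zm00004b030088), a peroxidase gene. The photosystem II reaction centre W gene had *r* = -0.17. The kinase gene was itself a *trans* gene in 27 of the 29 combinations, px5 in 17 and the photosystem II gene in 19. In the remaining combinations the copy number of that gene changed as well. These are descriptions over combinations that share controls.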

How the data were processed

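The authors trimmed reads of stranded, rRNA-depleted leaf libraries with fastp, removed organelle reads, aligned the rest with STAR to the W22 genome with the B chromosome, and ran Cuffdiff. Versions and the library scaling are not given in the sources used here. The deposited tables hold, per gene and comparison, a control mean and an aneuploid mean in FPKM. They also hold the authors' fold changes, test statistics, p-values and q-values, which were not used. Each comparison also lists 1 line with no gene identifier, which was dropped. No counts and no values per plant were used, so depth and counting error are unknown.

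Arm boundaries were placed at the change point of the signed log2 ratio along each chromosome. Ratios are aneuploid over control mean, without a pseudocount, and genes entered where control and aneuploid mean together reached 1 FPKM. *Trans* genes are those of chromosomes 1 to 10 outside both varied arms. The 2 tests were exact two-sided permutations that flip signs over pairs, at a threshold of 0.05. Replicates are plants listed under one combination, and their spread does not enter any value here.

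The gene, the lists and the tests were chosen with earlier results of these data known. Named genes were glk8, the 2 most alike and the 2 most opposite genes by correlation, the nearest gene on either side that passed the filter in every comparison, and the droplet digital PCR genes as a group. The correlation of control and aneuploid levels and the matched arm comparisons were added after the data were examined. The reference provided annotates the line B73 and holds 0 of the W22 identifiers, so no other G2-like gene and no sequence is given. Steps were tested on simulated data. Software was matplotlib 3.10.9, scipy 1.17.1, pandas 2.3.3 and numpy 2.4.6 under Python 3.11.15.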

Additional observations from a re-analysis of the deposited data

Results flagged for a closer look

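Opposite directions of glk8 were seen between pairs of arms, in that every combination of one pair lay on one side of its control and every combination of another pair on the other. The geometric mean ratio was 2.09 in 1L+3L (2 of 2 combinations above the control) and 1.58 in 4L+6L (4 of 4 above). It was 0.500 in 1S+9L (3 of 3 below) and 0.796 in 5L+6L (4 of 4 below). The difference between the pairs was not tested, the combinations of a pair share 1 control mean, and the first 2 pairs had the lowest and the other 2 the highest control levels (22.9 and 22.8 against 70.5 and 57.9 FPKM).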

How the results depend on the processing

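No paired analysis was possible because the tables hold 1 mean per group and no column per plant. Of 344 values recomputed under alternatives, 335 kept their direction and their side of the threshold or moved by less than the spread set for them (the SD of the controls for ratios, 10 points for percentiles, 0.1 for correlations). The 335 include 132 single ratios, which moved by at most 1.21-fold, well within that SD. Of these, 3 changed side of 1. The departure from additivity in 5L+6L changed sign, from 0.01 to -0.04, on division by the *trans* median and is also among the 335. The log2 difference between double monosomy and double trisomy passed the threshold when ratios were divided by the *trans* median (-0.47, exact permutation P = 0.03125). It did not pass when levels were divided by the sum of FPKM of the group (-0.29, exact permutation P = 0.156). Leaving out 1 pair at a time gave -0.39 to -0.22 (exact permutation P of 0.0625 to 0.188), in designs of 5 pairs that cannot pass it. The mean *trans* log2 ratio was -0.044 to 0.25 with 1 pair left out, the lowest without 1L+3L, and 0.24 without the 3 pairs that vary 5L, an alternative chosen after seeing the data. With 2-fold in place of 1.5-fold, 3 combinations were higher and 3 lower. The slope on copies of 5S was 0.73 to 0.95 with 1 other group mean left out, 0.49 without the single tetrasomic plant and 1.00 without both combinations with mid-rib plants (chosen after seeing the data). The correlation of control and aneuploid levels was -0.087 (without 4L+6L) to 0.37 with 1 pair left out, and -0.078 without 6L+9S. The cause of these changes was not tested. Filters and the definition of *trans* moved no percentile by as much as 10 points. Pseudocounts of 0.1 and 1 FPKM were applied to ratios and not to percentiles, and moved no single ratio by as much as the SD of the controls. The means came from 1 to 5 plants each, and the significance of single ratios was not assessed here.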
